A study of Mus musculus with 2 samples.

Results

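The Meg3-proximal miRNAs are the 7 miRNA genes Mir770, Mir673, Mir493, Mir337, Mir3544, Mir540 and Mir665 on mouse chromosome 12, which lie in the long non-coding RNA gene Meg3 or between it and Rtl1. They were chosen by name and place from GENCODE M21, among 2202 annotated miRNA genes in the count tables, and the rule uses no read count. Small RNA of the left cerebral cortex was sequenced from male B6CASTF1/J mice aged 2 months. These animals are first-generation hybrids of the inbred strains C57BL/6J and CAST/EiJ, with no treatment in the labels. The series holds 1 group of 2 libraries, from animal number 3 (library 1) and animal number 4 (library 2), so there is no comparison between conditions. Both libraries carry 1 donor identifier, so p-values and SDs measure only how these libraries differ, and part or all of that may be technical.

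Meg3 and Rtl1 belong to the imprinted Dlk1-Dio3 region. There the protein-coding genes Dlk1, Rtl1 and Dio3 are expressed mainly from the paternal chromosome, and Meg3, the other long non-coding RNAs and the miRNAs mainly from the maternal one. The region is active in embryo, placenta and adult brain, and its miRNAs are thought to be cut from long transcripts that begin at the Meg3 promoter. A miRNA is cut from a hairpin, of which either arm can be loaded into an Argonaute protein, and the seed of the arm pairs with target mRNAs. The counts give 1 number per hairpin, without a split by arm or by parental allele.

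The mature arms of the 7 genes are shown with the seed (bases 2 to 8) in capitals, because they decide both which mRNAs can be paired and whether a short read has 1 place of origin. The sequences are RefSeq's for GRCm38.p6, the assembly also named mm10, and all 7 genes had an entry.
mmu-miR-770-5p: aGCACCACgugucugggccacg
mmu-miR-770-3p: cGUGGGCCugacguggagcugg
mmu-miR-673-5p: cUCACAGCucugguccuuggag
mmu-miR-673-3p: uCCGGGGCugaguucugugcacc
mmu-miR-493-5p: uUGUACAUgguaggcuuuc
mmu-miR-493-3p: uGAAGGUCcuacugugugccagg
mmu-miR-337-5p: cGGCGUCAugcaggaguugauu
mmu-miR-337-3p: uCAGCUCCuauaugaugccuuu
mmu-miR-3544-5p: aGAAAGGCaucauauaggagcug
mmu-miR-3544-3p: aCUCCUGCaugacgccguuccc
mmu-miR-540-5p: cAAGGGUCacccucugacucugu
mmu-miR-540-3p: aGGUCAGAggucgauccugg
mmu-miR-665-5p: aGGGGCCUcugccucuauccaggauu
mmu-miR-665-3p: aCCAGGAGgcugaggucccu

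The 14 arms, of 19 to 26 bases, carried 14 different seeds, so no members formed a family by seed. Of the 1679 mature mouse miRNAs in the RefSeq table, 27.9% share their seed with another one. Among the members' arms 2 of 14 did. The miR-673-5p seed UCACAGC also occurs in miR-6985-3p, whose gene had 18 and 31 reads in libraries 1 and 2. The miR-540-3p seed GGUCAGA also occurs in miR-6915-5p, whose gene had 32 and 25 reads. Each of the 14 arms was found in 1 hairpin of the table, and in GENCODE transcripts outside its own gene only the Mir770 arms occurred, in Meg3. No member shared a stretch of 20 bases with another annotated hairpin on the same strand. Copies elsewhere in the genome were not analysed here.

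All 7 hairpins matched GENCODE M21 base for base. Those of Mir770, the most abundant member, and of the opposite genes Mir337 and Mir3544 are shown with both mature arms in capitals, because reads of Mir337 and Mir3544 can be told apart only by strand.
Mir770 hairpin: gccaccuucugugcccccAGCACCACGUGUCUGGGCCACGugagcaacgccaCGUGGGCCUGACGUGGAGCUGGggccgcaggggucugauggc
Mir337 hairpin: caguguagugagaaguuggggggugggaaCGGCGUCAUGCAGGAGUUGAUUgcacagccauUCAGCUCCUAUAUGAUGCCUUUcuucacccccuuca
Mir3544 hairpin: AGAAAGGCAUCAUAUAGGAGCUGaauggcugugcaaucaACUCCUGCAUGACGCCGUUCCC

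The Mir770 hairpin was 70.2% G or C, against a median of 51.7% over the 1005 hairpins in the table, and folded with a minimum free energy of -58.2 kcal/mol over 94 bases. The lowest G and C content among the members was 50.8%, in Mir3544, whose hairpin of 61 bases reached only -23.5 kcal/mol. Per base, the predicted energies were -0.62 kcal/mol for Mir770, -0.61 for Mir540, -0.54 for Mir493, -0.51 for Mir337, -0.47 for Mir665, -0.46 for Mir673 and -0.39 for Mir3544. In the predicted folds 15 bases of the 5p arm paired with the 3p arm in Mir673, and 18 in Mir493, Mir337 and Mir665. Mir540, Mir770 and Mir3544 had 17, 16 and 16 such pairs.

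On the plus strand the members follow one another in the order Mir770, Mir673, Mir493, Mir337, Mir540 and Mir665 (coordinates are mm10). Mir770 (ENSMUSG00000076451.1, chr12:109563692-109563785) lies within Meg3 (chr12:109541001-109571726), in an exon of 1 of the 4 Meg3 transcripts that span it and in introns of the other 3. Mir673 (ENSMUSG00000076316.1, chr12:109571990-109572080) begins 264 bases past the annotated end of Meg3. Mir493 (ENSMUSG00000077025.2, chr12:109580233-109580315) lies between Mir673 and a tight trio. This trio is Mir337 (ENSMUSG00000065526.4, chr12:109585789-109585885), Mir540 (ENSMUSG00000072900.2, chr12:109586080-109586146) and Mir665 (ENSMUSG00000076313.1, chr12:109586314-109586407), with gaps of 194 and 167 bases. Mir3544 (ENSMUSG00000105210.1, chr12:109585813-109585873) is the only member on the minus strand and lies wholly within Mir337. Outside Meg3, no member had an annotated longer host transcript on either strand. Mir665 ends 2786 bases before the near end of Rtl1 (chr12:109589193-109600330, minus strand).

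**Figure D1:**
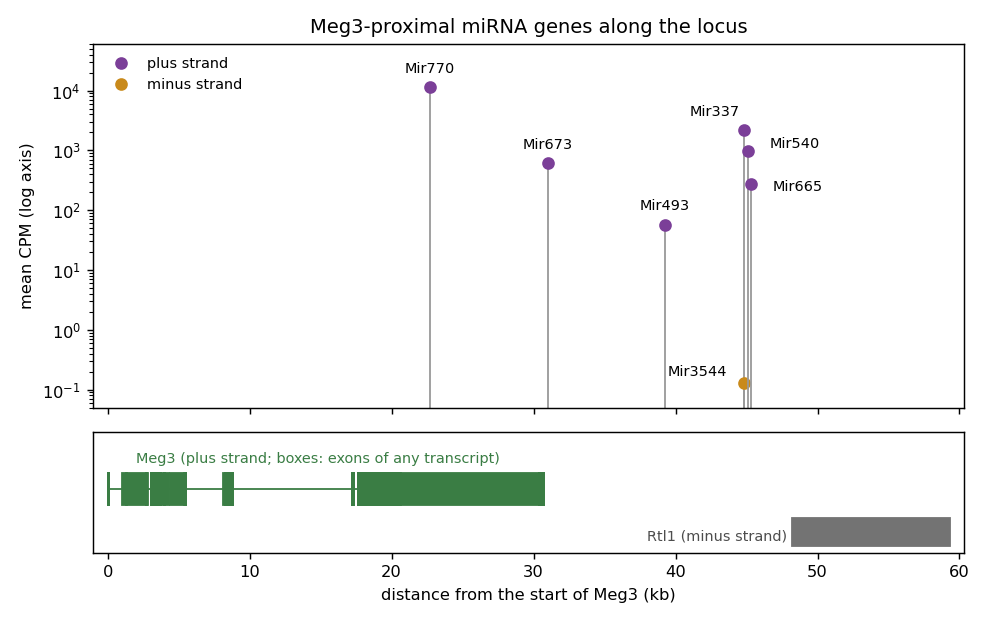
Upper panel, mean CPM (counts per 1000000 sense-strand miRNA reads, log axis) of each member against its distance from the start of Meg3 in kb, with plus-strand genes in purple and the minus-strand gene in orange; lower panel, Meg3 with its exons and Rtl1 on the same axis. Mir770 stands highest at 11424 CPM, Mir337, Mir540 and Mir665 step down within a short stretch, and Mir3544 lies at 0.131 CPM opposite Mir337.

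Library 1 held 11372894 reads, of which 3827158 (33.7%) fell on the sense strand of a miRNA gene, and library 2 held 12980686 reads, of which 4553291 (35.1%) did. Reads that mapped to several places made up 41.7% and 41.1% and, by the layout of the tables, were given to no gene. The neuronal Mir132 stood at 48515 CPM in library 1 and 30152 CPM in library 2. Also neuronal, Mir137 was at 5517 and 5176 CPM and Mir128-1 at 13881 and 6392 CPM. Mir128-1 shares a mature arm with Mir128-2, so its count is not its full level. The liver marker Mir122 was at 72.4 and 78.6 CPM and the muscle marker Mir206 at 25.3 and 33.6 CPM. Of the red blood cell markers, Mir451a and Mir144 were higher in library 2 and Mir486 was higher in library 1. Mir451a was at 58.3 CPM in library 1 and 1419 CPM in library 2, Mir144 at 24.6 and 96.0 CPM, and Mir486 at 51.0 and 34.7 CPM. Mir486 shares a stretch of 20 bases with Mir3107, so some of its reads may have several places and its count may not be its full level. The part of red blood cells in the members' values was not tested. CPM are counts per 1000000 sense-strand miRNA reads. A small RNA read spans a whole mature molecule, so CPM carry no length term. The tables count reads and not molecules, so intervals and limits cover counting error only.

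The 7 genes together held 52788 reads in library 1 and 78446 reads in library 2. That was 1.38% (95% exact binomial interval 1.37 to 1.39%) and 1.72% (1.71 to 1.73%) of the sense-strand miRNA reads, or 1.55% ± 0.243 (SD, n = 2). This total leaves out reads with several places, so these are not shares of all miRNA in the tissue. Detection required 10 or more reads in both libraries, which 18.4% of all annotated miRNA genes met. Of the members 6 met it and Mir3544 did not. Mir770 alone supplied 71.4% of the members' reads in library 1 and 75.4% in library 2. Mir337 supplied 14.2% and 14.0%, and Mir540 7.54% and 5.19%. Mir673, Mir665 and Mir493 held 3.88%, 2.51% and 0.483% in library 1 and 3.95%, 1.16% and 0.279% in library 2.

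Mir770, the miRNA gene inside Meg3, had 37709 reads in library 1 and 59167 in library 2, or 9853 and 12994 CPM (mean 11424 ± 2221, SD, n = 2). Its mean ranked it 16 of 2202, and no other member came above 2410 CPM in either library. The next genes in mean level were Mir151 at 12113 ± 1373 CPM and Mir330 at 11272 ± 801 CPM, and the library values of both overlapped with those of Mir770.

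Mir673, just beyond Meg3, had 2050 and 3102 reads in libraries 1 and 2, or 536 and 681 CPM (608 ± 103, SD, n = 2). It ranked 120, between Mir7689 at 619 ± 127 CPM and Mir532 at 601 ± 157 CPM. It lies 8204 bases from Mir770 and was 18.4-fold below it in library 1 and 19.1-fold below in library 2.

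Mir493, whose human counterpart has been studied as a suppressor of tumour cell growth and metastasis, was the lowest detected member. It had 255 reads in library 1 and 219 in library 2, or 66.6 and 48.1 CPM (57.4 ± 13.1, SD, n = 2). Its rank was 223, next to Mir7044 at 58.9 ± 4.59 CPM and Mir9-3 at 56.7 ± 5.54 CPM. Mir9-3 shares a mature arm with Mir9-1 and Mir9-2, so reads from that arm have several places and its count is not its full level.

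Mir337, which was read almost alone from its pair of opposite genes, had 7470 and 10972 reads in libraries 1 and 2, or 1952 and 2410 CPM (2181 ± 324, SD, n = 2). It ranked 61, between Mir128-2 at 2209 ± 919 CPM and Mir338 at 2161 ± 815 CPM, an oligodendrocyte-enriched miRNA gene. Mir128-2 shares a mature arm with Mir128-1, so its count carries the same limit as that of Mir9-3, and ranks of the members are ranks among counts of this kind. The other genes of the trio were lower in turn. Mir540 had 3979 and 4073 reads, or 1040 and 895 CPM (967 ± 103), and ranked 97, between Mir667, a gene of the distal part of the region, at 968 ± 138 CPM and Mir185 at 950 ± 1064 CPM. Mir665 had 1324 and 913 reads, or 346 and 201 CPM (273 ± 103), and ranked 152, between Mir15b at 274 ± 79.0 CPM and Mir339 at 270 ± 19.9 CPM. The trio thus spanned 5.64-fold from Mir337 to Mir665 in library 1 and 12.0-fold in library 2, with the gaps of 194 and 167 bases given above.

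**Figure D2:**
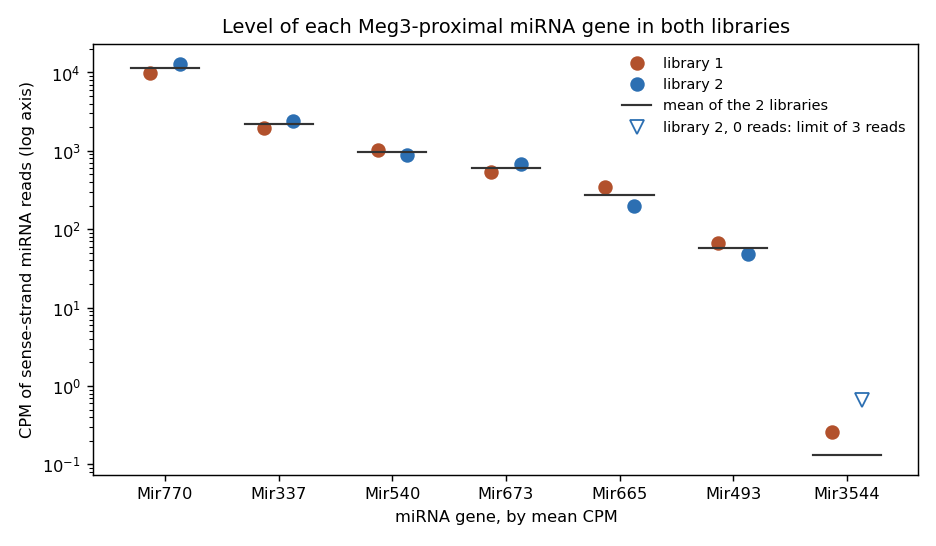
CPM on a log axis of each member in library 1 (orange) and library 2 (blue), with the mean as a line and an open triangle at the limit of 3 reads where a library had 0 reads. The order of the members is the same in both libraries, from Mir770 at 9853 and 12994 CPM down to Mir493 at 66.6 and 48.1 CPM, and Mir3544 lies far below the rest.

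The order Mir770, Mir337, Mir540, Mir673, Mir665, Mir493 held in both libraries, and the library values of no neighbours in it overlapped. By mean CPM the closest neighbours were Mir540 and Mir673, 1.59-fold apart (1.94-fold in library 1, 1.31-fold in library 2). Mir673 and Mir665 were closer in library 1, at 1.55-fold. Mir770 exceeded Mir337 5.05-fold and 5.39-fold, and Mir665 exceeded Mir493 5.19-fold and 4.17-fold. Among the detected members the mean levels spanned 199-fold, with 148-fold in library 1 and 270-fold in library 2. The order of levels was not that of the chromosome.

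**Figure D3:**
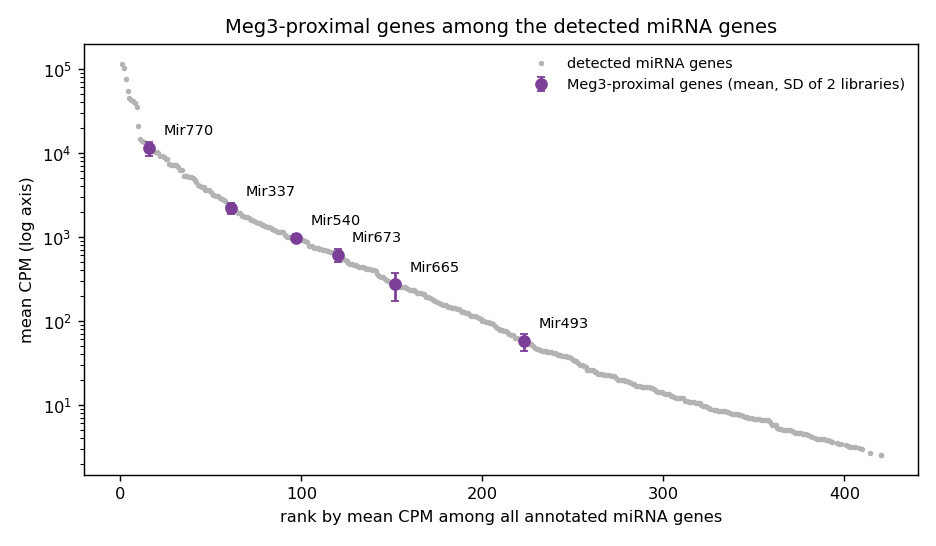
Mean CPM (log axis) of the 406 detected miRNA genes against their rank among all 2202, with the 6 detected members in purple and error bars for the SD of 2 libraries. The members run from Mir770 at rank 16 to Mir493 at rank 223 and do not cluster at one level.

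Mir3544 is encoded opposite Mir337, and the sequence of its hairpin is the reverse complement of a stretch inside that of Mir337. The arms face each other. Of miR-337-5p and miR-3544-3p 17 bases overlap, and of miR-337-3p and miR-3544-5p 21 bases overlap. A read from this stretch is therefore assigned by its strand alone. Mir3544 had 1 sense read in library 1 and 0 in library 2. Of the reads at the pair in library 1, 0.0134% lay on the minus strand (95% exact binomial interval 0.000339 to 0.0746%). In library 2 there were 0 of 10972, which allows a share of up to 0.0273% for a limit of 3 counts, or 0.0336% by the 95% exact interval. Mir337 had 7470 reads for the 1 read of Mir3544 in library 1 (95% exact interval of the ratio 1340 to 295088). In library 2 Mir337 was at least 2974-fold higher than Mir3544 by the 95% exact interval used for library 1, and at least 3657-fold at the limit of 3 counts.

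The antisense column mirrored this. The entries opposite Mir3544 numbered 7470 and 10972 and equalled the sense reads of Mir337, and the single antisense entry of Mir337 in library 1 was the read of Mir3544. The other 5 members had no antisense read in either library, beside 45317 and 67474 sense reads. For Mir770 a count of 0 allows an antisense share of up to 0.00796% of its sense reads in library 1 and 0.00507% in library 2. For Mir493, with the fewest reads of these 5, the limits were 1.18% and 1.37%. With both genes of the pair included, the sense column held 87.6% of the stranded entries at the members in library 1 and 87.7% in library 2. In the column that ignores strand Mir337 and Mir3544 had 0 reads in both libraries, since their reads cannot be given to 1 of 2 overlapping genes. The pair's 7471 and 10972 reads equal 2.69% and 3.27% of the entries tallied as ambiguous in that column, which numbered 277760 in library 1 and 335196 in library 2. The other 5 members had the same count in both columns.

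**Figure D4:**
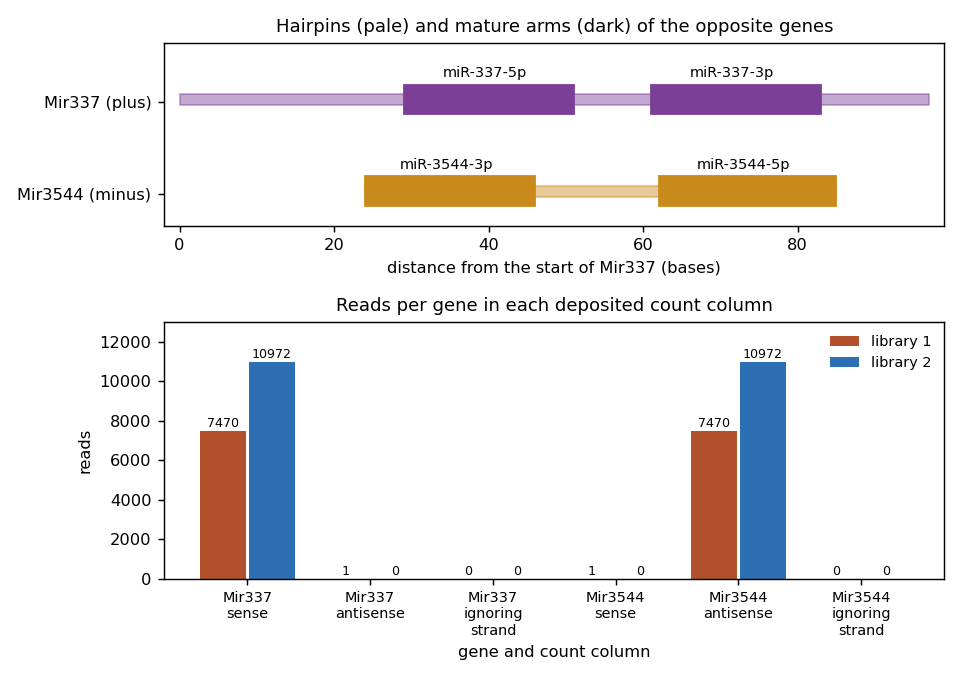
Upper panel, hairpins (pale) and mature arms (dark) of Mir337 and Mir3544 by distance in bases from the start of Mir337; lower panel, reads of each gene in the sense column, the antisense column and the column that ignores strand, for library 1 (orange) and library 2 (blue). The 7470 and 10972 sense reads of Mir337 reappear as antisense entries of Mir3544, and neither gene has a read in the column that ignores strand.

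Between the libraries the detected members moved in both directions. An exact binomial test (two-sided, p-values adjusted by Benjamini and Hochberg over all genes with 10 or more reads) compared these 2 libraries with counting error alone. It called 246 of 508 genes (48.4%), of which 25.2% of those tested were higher in library 1 and 23.2% higher in library 2. All 6 detected members were called, 3 higher in each library. With many reads the test calls small differences, and the counts of these members run from 219 to 59167.

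Mir770 was 1.32-fold lower in library 1 than in library 2 (log2 ratio, as library 1 over library 2, of -0.40 with a 95% exact interval of -0.42 to -0.38). Mir673 had a log2 ratio of -0.35 (-0.43 to -0.27, adjusted p = 9.3e-17 in the exact binomial test) and Mir337 one of -0.30 (-0.35 to -0.26, adjusted p = 1.99e-44 in the exact binomial test). The other 3 were higher in library 1. Mir665 showed the widest difference of the 6, 1.73-fold (log2 ratio 0.79, 0.66 to 0.91, adjusted p = 9.46e-37 in the exact binomial test). Mir493 followed at 1.39-fold (0.47, 0.20 to 0.74, adjusted p = 0.00114 in the exact binomial test) and Mir540 at 1.16-fold (0.22, 0.15 to 0.28, adjusted p = 6.41e-11 in the exact binomial test).

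These differences were of the size seen between the libraries over all detected genes. The median absolute difference was 1.30-fold over the 6 members and 1.28-fold over all 406 detected genes. The median level of these 406 genes was 95.6 CPM, against 788 CPM for the 6 members, so counting error adds more to their differences. Of the detected genes 82.0% differed less than Mir665, 62.6% less than Mir493, 55.9% less than Mir770, 49.0% less than Mir673, 43.3% less than Mir337 and 31.8% less than Mir540. The common dispersion over the 508 genes gave a coefficient of variation of 33.3% between the libraries beyond counting error. The detected members' own coefficients, counting error included, ran from 10.6% for Mir540 to 37.6% for Mir665. With edgeR's exact test at that dispersion 0 members were called and 0 had an unadjusted p under 0.05, beside 0.787% of the 508 genes tested called and 4.92% of them under 0.05 unadjusted. The lowest unadjusted p among the members was that of Mir665, 0.249, by edgeR's exact test. That dispersion came from the same libraries, so this is no replicated test.

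The ratio of 2 members within a library needs no scaling between libraries. Mir770, Mir673 and Mir337, the 3 members lower in library 1, had like log2 ratios, so their proportions to one another changed little. This restates those ratios and is no separate result. Genes elsewhere had like ratios too, such as Mirlet7g at -0.35. Mir770 over Mir673 was 18.4 in library 1 and 19.1 in library 2, and Mir337 over Mir673 was 3.64 and 3.54. Proportions within the trio changed more. Mir337 over Mir540 was 1.88 in library 1 and 2.69 in library 2, a 1.43-fold change, and Mir337 over Mir665 was 5.64 and 12.0, a 2.13-fold change. The widest change among pairs of detected members was that of Mir770 over Mir665, which was 28.5 in library 1 and 64.8 in library 2.

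**Figure D5:**
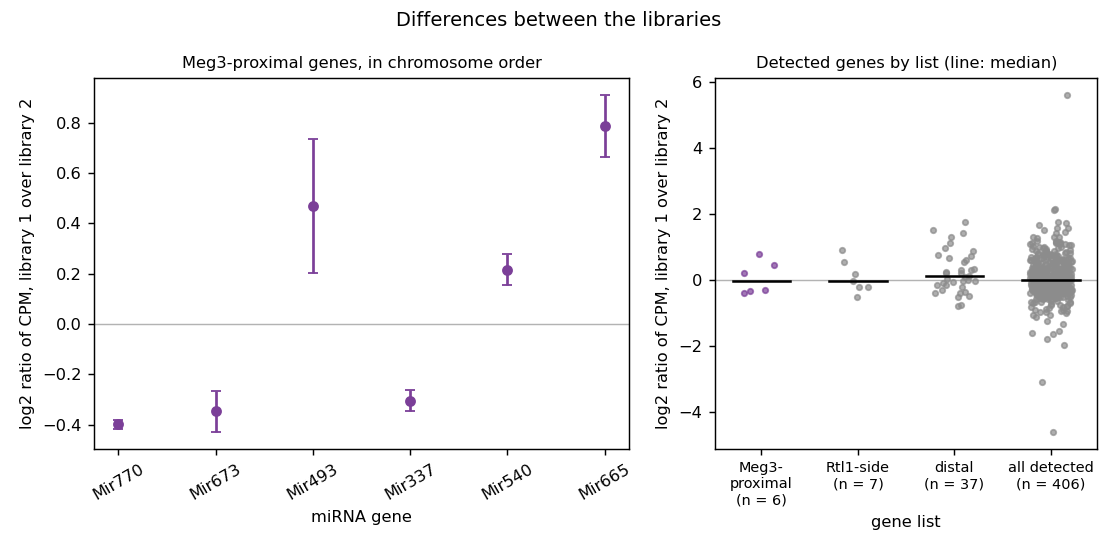
Left, log2 ratio of CPM in library 1 over library 2 for the 6 detected members in chromosome order, with exact 95% intervals for counting error; right, on a wider axis, the same ratio for the detected genes of each list with the median as a line. Mir770, Mir673 and Mir337 lie between -0.40 and -0.30, Mir540, Mir493 and Mir665 between 0.22 and 0.79, and all 6 lie within the range of the distal list.

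The rest of the imprinted region was set beside the members as 2 lists. The Rtl1-side list has 9 miRNA genes opposite or next to Rtl1, and the distal list has 42 genes of the stretch around the long non-coding RNAs Rian and Mirg. The 3 lists together held 11.6% of the sense-strand miRNA reads in library 1 and 13.3% in library 2, and the members held 11.9% and 12.9% of these region reads. Reads with several places are again left out of the totals. The median CPM over all genes of a list was 608 for the members, 128 for the Rtl1-side list, 283 for the distal list and 0 for all annotated miRNA genes. The share detected was 6 of 7 members, 7 of 9 Rtl1-side genes and 37 of 42 distal genes, beside 18.4% of all genes.

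The highest gene of the Rtl1-side list was Mir127, which lies opposite Rtl1 and is known to act on its mRNA, at 35649 CPM in library 1 and 50487 CPM in library 2. The highest distal gene was Mir382 at 8813 and 9762 CPM. Mir770 lay between these genes in both libraries. The summed share of the lists was 1.38% and 1.72% in libraries 1 and 2 for the members, 5.02% and 6.66% for the Rtl1-side list, and 5.16% and 4.94% for the distal list. As log2 ratios of library 1 over library 2 these were -0.32, -0.41 and 0.06, with no test of a difference between lists. Over detected genes the median absolute difference was 1.15-fold in the Rtl1-side list and 1.30-fold in the distal list, beside 1.30-fold for the members. Of 7 Rtl1-side genes tested, the exact binomial test called 3 higher in library 1 and 2 in library 2, and of 37 distal genes 16 and 11, beside 25.2% and 23.2% of all genes tested. edgeR's exact test called 0 genes of either list, with 0 Rtl1-side and 3 distal genes at an unadjusted p under 0.05. The detected genes of the region whose log2 ratio lay nearest to the -0.32 of the summed members were Mir411 (-0.31), Mir134 (-0.38) and Mir379 (-0.38), all from the distal list. Mir411 shares a stretch of 20 bases with Mir758, so some of its reads may have several places and its count may not be its full level. Likeness over 2 libraries rests on 1 number per gene.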

How the data were processed

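The authors deposited 1 table of whole-number read counts per library, not normalized, with the sense strand, the antisense strand and strand ignored in 3 columns. The build was mm10 and the RNA size below 30 nucleotides, per the labels, and the annotation GENCODE M21, per the deposited descriptions. The aligner and the trimming, not given in the sources used here, decide which short reads were placed. The 4 tally rows (unmapped 19.6% and 18.9%, several places 41.7% and 41.1%, outside genes 5.03% and 4.94%, ambiguous 0 and 1 read) stayed out of library sizes and tests. The sense column was the stranded column with the larger total. All 2202 identifiers matched GENCODE M21.

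CPM used sense-strand totals. The exact binomial test (threshold 0.05) stood in for edgeR's quasi-likelihood test, which has no contrast to test in 1 group. The exact binomial test was tried on simulated counts with counting error only. They lacked the further spread between the libraries seen in these data, so the trial does not cover it. TMM factors, the common dispersion (intercept only) and the exact test came from edgeR 4.0.16, and size factors from DESeq2 1.42.0, in R 4.3.3. Python 3.11.15 with scipy 1.17.1, pandas 2.3.3, numpy 2.4.6 and matplotlib 3.10.9 did the rest. Hairpins were folded with ViennaRNA 2.7.2, and sequences came from RefSeq (GRCm38.p6).

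All 7 members are named. Of other genes, the rule names the highest of each list, the 3 nearest in log2 ratio and the neighbours of each detected member in mean CPM. Mir132, Mir137, Mir128-1, Mir122, Mir206 and Mir451a served as a check of the tissue. Mir144 and Mir486 were added after their values were seen. Members and lists were chosen with earlier results of these data known. Alternatives covered strand, scaling, test, filters, denominator and leaving out each library.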

Additional observations from a re-analysis of the deposited data

How the results depend on the processing

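The level and log2 ratio of each detected member kept their direction and their side of the threshold under edgeR's TMM scaling, DESeq2 size factors and testing every gene with at least 1 read, and 6 members were detected with minimums of 5 and 50 reads. The test mattered: with edgeR's exact test the number called was 0, at log2 ratios of -0.38 for Mir770, -0.33 for Mir673, -0.29 for Mir337, 0.23 for Mir540, 0.49 for Mir493 and 0.80 for Mir665, since it adds the spread between the libraries. The column that ignores strand gave Mir337 a CPM of 0, so 5 members were detected there. All 5 were called by the exact binomial test, 3 higher in library 1 and 2 in library 2, beside 48.4% of all genes tested in the sense column. The range from Mir770 to Mir3544 was 87440-fold by mean CPM but rests on 1 read of Mir3544 (96876 reads to 1, 95% exact interval 17387 to 3826430). It was at least 19722-fold without library 1 and 37709-fold without library 2. With strand ignored it came out at 15838-fold at the limit of 3 reads. That value bounds no difference in level, since reads of overlapping genes are given to neither gene there. The range among the detected members was added after the data were seen. Over the 6 genes detected in the sense column it also came out at 15838-fold with strand ignored, with Mir337 at the limit of 3 reads. Mir337 was not detected there, and Mir770 and Mir493, the ends of the 199-fold range, kept their counts. The range among the detected members was 148-fold to 270-fold with 1 library left out. As a share of all reads, the members held 0.534%. Without Mir337 and Mir3544 the sense share was 100%. Leaving out either library gave 1.38% to 1.72% for the members' share and 87.6% to 87.7% for the sense share. No paired analysis was possible because the series has 1 group. DESeq2 cannot test 1 library against 1, so only its size factors were used. Among the members only Mir3544 had too few reads to be tested. Mir493, with 255 and 219 reads, had the widest log2 interval of the tested members, 0.20 to 0.74.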

Other observations

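Within the stretch from Meg3 to Mir410 some annotated miRNA genes belong to none of the lists, and they were chosen here after their values were seen. Mir1188 in Rian stood at 178 and 179 reads in libraries 1 and 2, a mean of 42.9 CPM. Mir1906-1 in Meg3 had 0 reads in both libraries, but it shares a mature arm with Mir1906-2, so reads from that arm have several places and the 0 cannot be read as a low level.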
